A study of Mus musculus with 20 samples.

Results

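A set of 9 long noncoding RNAs was followed across cultured mouse neurospheres: Malat1, Neat1, Miat, Rmst, Sox2ot, Snhg1, Snhg11, Gas5 and Dlx6os1. They were chosen by name as RNAs held in the nucleus or tied to neural cells or to small nucleolar RNA (snoRNA) production, and they are 9 of the 36724 genes in the deposited expression table. Of these, 7 reached at least 0.5 RPKM (reads scaled by gene model length and by mapped reads) in at least 3 of the 20 libraries and were tested among the 16403 genes that did so. Rmst and Dlx6os1 did not, and only their values are given.

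Neurospheres are floating clusters grown from neural stem and progenitor cells in medium with EGF and FGF. Donors were adult C57BL/6 mice 8 to 12 weeks old, wild type or knockout for Egfl7, which encodes a secreted protein best known from blood vessel endothelium, and the spheres received no other treatment. The 6 groups were subventricular zone (SVZ) spheres at culture day 3 (3 wild-type and 3 knockout libraries), hippocampal spheres at day 5 whose titles carry "spheres1" like those of the SVZ (HC1, 3 and 3), and hippocampal spheres at day 5 whose titles carry "spheres2" (HC2, 4 and 4). All donors were male except the 3 HC1 wild types, which were female. SVZ and HC1 are called the first sphere round here and HC2 the second. The labels name neither the knockout allele nor the passage history, and they number the mouse behind each library, with different numbers within a group. Some numbers recur in other groups. Where genotype or donor sex differs, they stand for different mice. Where both are the same, whether the mouse is the same is not stated.

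Several facts of the libraries touch every result. Egfl7 lay between 0.566 and 2.99 RPKM in 9 of the 10 wild types and at 0.094 RPKM or below in 9 of the 10 knockouts. The library labelled SVZ wild type 3 was at 0 and the library labelled SVZ knockout 2 was at 2.86 RPKM, so SVZ results are also given without these 2. The short structural RNAs (7SL, 7SK, RNase P and similar) took 0.044 to 0.069% of the summed RPKM in the first round and 8.53 to 23.7% in HC2. Depth worked out from the values was 11530000 to 13700000 counted fragments in the first round and 17550000 to 30670000 in HC2. Sphere round, depth and library composition therefore cannot be told apart. Progenitor markers such as Sox2 (72.1 to 320 RPKM) were present in all 20 libraries, while only 2 of 11 endothelial, 2 of 10 pericyte and fibroblast and 2 of 12 microglial markers were high enough to be tested.

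Long noncoding RNAs are transcripts that are not translated into a known protein. Malat1 and Neat1 are neighbouring genes whose RNAs stay in the nucleus: Malat1 gathers in nuclear speckles, the stores of splicing factors, and Neat1 is the scaffold of paraspeckles, bodies built with the proteins NONO and SFPQ. Malat1 and the long isoform of Neat1 end not in a usual poly(A) tail but in a triple helix, in which U-rich stretches clasp an A-rich stretch. Miat (also Gomafu) forms nuclear spots of its own in neural cells and carries repeats of the splicing branch point sequence, which bind SF1, QKI and CELF3. Rmst and Sox2ot are linked to the neural stem cell factor SOX2, and Dlx6os1 (Evf2) to interneuron development. Snhg1, Snhg11 and Gas5 are hosts of snoRNAs in their introns, and the spliced Gas5 and Snhg1 RNAs begin with pyrimidine tracts like the messenger RNAs of the translation machinery and are removed by nonsense-mediated decay.

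The 3′ elements of Malat1 and of the long Neat1 isoform are shown because they form the triple helix described above. The capitals mark the 3 stretches of at least 11 bases that the end of the long Neat1 RNA shares with the end of Malat1: TTTCTTTTCCTGA, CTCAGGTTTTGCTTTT and AAAAAGCAAAA, the last of which is the A-rich part. In GENCODE M21 (GRCm38), 2 of 141767 transcripts held all 3 on the transcribed strand, Malat1-201 and Neat1-201. The stretches were taken from these 2, so the count shows only that no other transcript held all 3. The Malat1 element lies at chr19:5795977-5796070 and the Neat1 element at chr19:5824708-5824802, both on the minus strand.
Malat1: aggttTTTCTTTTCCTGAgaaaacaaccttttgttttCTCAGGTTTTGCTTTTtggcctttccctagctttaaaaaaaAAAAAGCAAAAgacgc
Neat1: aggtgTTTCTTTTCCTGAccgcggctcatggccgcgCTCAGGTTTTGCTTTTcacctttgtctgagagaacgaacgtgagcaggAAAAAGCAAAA
The deposited Malat1 row spans chr19:5795690-5802671 and includes its element. The deposited Neat1 row spans chr19:5842302-5845478, which is 3177 bases at the 5′ end that the short and the long Neat1 isoform share, whereas the long isoform Neat1-201 runs for 20771 bases from 5824708 to 5845478. The Neat1 values therefore measure both isoforms together, over a stretch that leaves out the element.

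For Miat (minus strand, chr5:112213228-112228948), the densest cluster of its repeat is shown, because it is the feature that ties this RNA to splicing factors measured below. The capitals mark ACTAAC at 4 of the 11 places where Miat-201 holds these letters on its transcribed strand, in the stretch chr5:112217309-112217459. At 6 of the 11 a T comes directly before them, which gives the longer form TACTAAC. The density below counts the shorter form.
Miat: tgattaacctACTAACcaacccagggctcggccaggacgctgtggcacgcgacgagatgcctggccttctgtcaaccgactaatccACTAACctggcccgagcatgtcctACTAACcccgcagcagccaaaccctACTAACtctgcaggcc
Miat-201 held 1.26 such matches per kilobase. The mean over the 68537 transcripts of at least 1000 bases was 0.108, and 0.308% of them had a density as high as that of Miat or higher. The longest Malat1 transcript held 0 matches and the long Neat1 isoform 4.

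The start sites of Snhg1 and Gas5 are shown for the pyrimidine run with which their RNAs begin, as 40 bases on each side of the RefSeq start in GRCm38.p6, on the plus strand. The capitals mark the unbroken run of C or T from the first transcribed base.
Snhg1 (chr19:8723447-8723526): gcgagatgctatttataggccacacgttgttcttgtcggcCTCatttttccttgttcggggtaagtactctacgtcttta
Gas5 (chr1:161035126-161035205): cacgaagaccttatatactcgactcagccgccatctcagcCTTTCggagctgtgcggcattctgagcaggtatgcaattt
The run was 3 bases long in Snhg1 and 5 in Gas5. Of 32851 mouse start windows in the same table, 10.69% began with a run of at least 3 and 4.44% with a run of at least 5. Miat, which is no snoRNA host, also had a start with a run, of 6 bases, and Malat1 one of 1. Snhg11, the third snoRNA host, had none at its RefSeq start, which lies 75 bases from the start of its deposited row. RefSeq lists a second Gas5 start 565 bases upstream with no run, and the one shown is the start of the deposited row.

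Levels are compared between genes as RPKM, which is per length. Malat1 had the highest group mean of the 9 in all 4 hippocampal groups, and Snhg1 had it in both SVZ groups. In the SVZ wild types the means ran from Snhg1 (81.7 ± 10.2 RPKM, SD, n = 3) over Malat1 (50.9 ± 1.96), Sox2ot (36.6 ± 2.57), Gas5 (32.9 ± 5.35), Neat1 (10.6 ± 3.88) and Miat (2.40 ± 1.55) to Snhg11 (0.287 ± 0.274). Across the 20 libraries Snhg1 varied least, 1.91-fold between the lowest and the highest library, followed by Gas5 at 2.92-fold. Malat1 varied most among the members above 0 everywhere, 63.5-fold, followed by Miat at 43.7-fold and Neat1 at 37.9-fold.

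**Figure D1:**
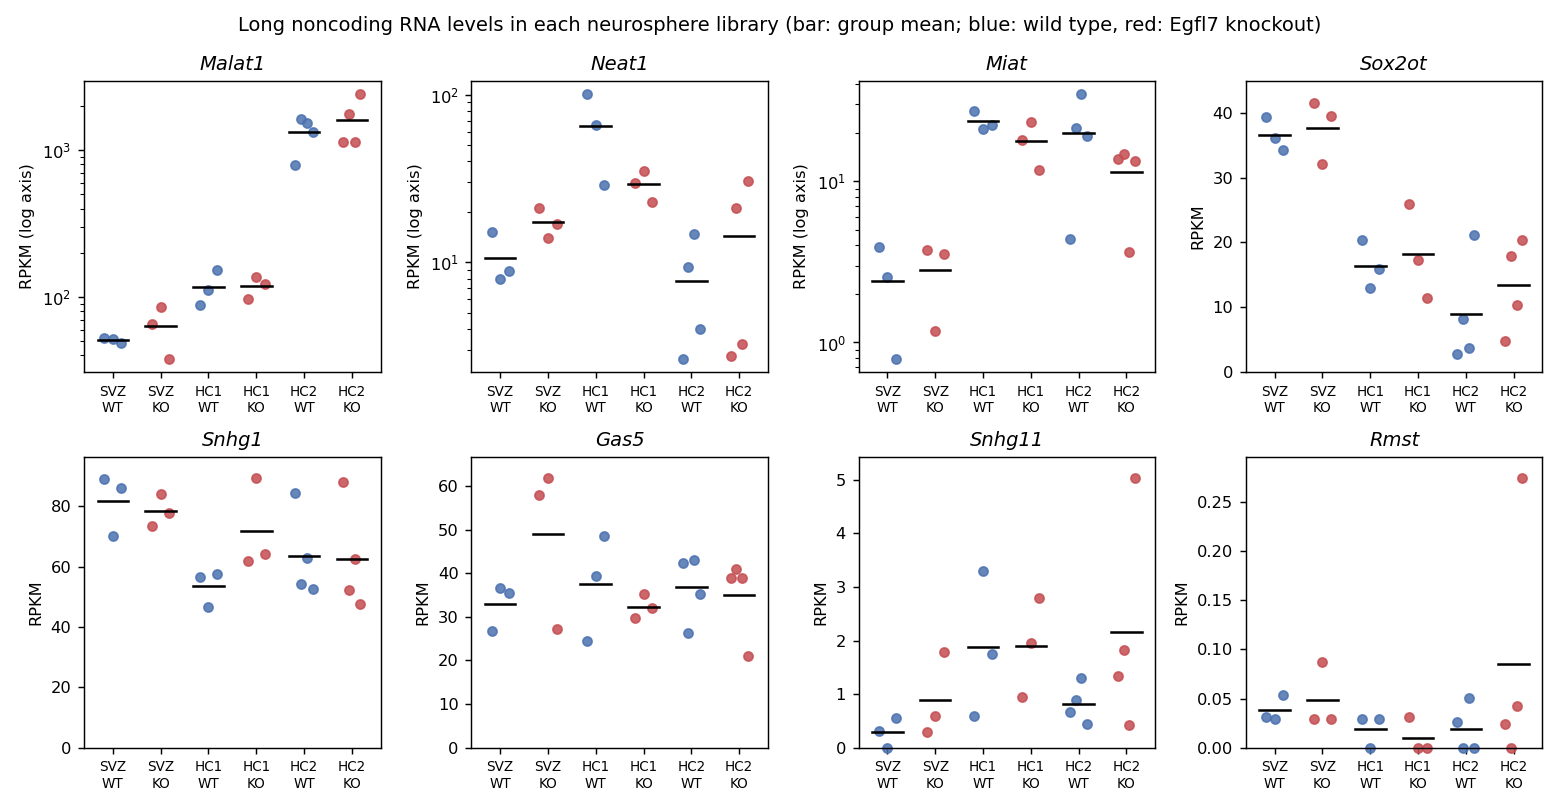
RPKM of 8 long noncoding RNAs in each library, by region and round (SVZ, HC1, HC2) and genotype (blue wild type, red knockout); each point is 1 library, bars are group means, and the Malat1, Neat1 and Miat axes are logarithmic. Malat1 lies between 798 and 2408 RPKM in HC2 and at 152 RPKM or below elsewhere, and Miat at 3.88 RPKM or below in the SVZ.

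The 2 untested members gave little or no signal. Rmst (minus strand, chr10:92081746-92165178), an RNA that partners SOX2 at neurogenic genes, was listed at 0 in 6 libraries and lay at 0.087 RPKM or below in 13 others. Its value of 0.274 RPKM in HC2 knockout 8 corresponded to 15 counted fragments, against 0 to 4 in each of the other 19, as worked out from the steps of the values. Dlx6os1 (minus strand, chr6:6820546-6869533) had no value in any of the 20 libraries. Dlx6, which lies inside it on the opposite strand, reached 0.117 RPKM at most and Dlx5 0.11 RPKM.

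The region comparison asks how SVZ and hippocampal spheres of the first round differ, with both genotypes weighted equally. Region and culture day (3 or 5) differ together in it, and so does donor sex among the wild types. Of the 7 members, 4 were lower in the SVZ (Malat1, Neat1, Miat and Snhg11) and 1 was higher (Sox2ot) at an adjusted p under 0.05 in limma with Benjamini-Hochberg adjustment over all 16403 genes. Over all genes 34.1% were called, 19.6% lower and 14.5% higher, so calls were common. The tested members had a median difference of -0.86 on the log2(RPKM + 1) scale against -0.03 for all genes. RefSeq long noncoding genes had a median of -0.15 (1497 genes) and protein-coding genes of -0.02 (13345 genes). The number of genes called lower and higher was 3221 and 2372, and after rescaling each library to its median gene it was 2832 and 2898. Members kept their directions under that rescaling.

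Miat differed most. Its RPKM were 3.88, 2.54 and 0.792 in SVZ wild types 1 to 3 and 3.74, 1.17 and 3.55 in SVZ knockouts 1 to 3. In HC1 they were 27.1, 21.1 and 22.3 in the wild types and 18.1, 23.3 and 11.8 in the knockouts. Every SVZ library lay below every HC1 library. The mean RPKM was 7.90-fold lower in the SVZ, and the log2 difference was -2.64 ± 0.42 (SE; limma adjusted p = 0.000401; two-sided exact permutation p = 0.005, the smallest that 3 against 3 in each genotype allows). Only 0.07% of all tested genes had a lower value in this comparison, and 23.6% of genes had groups that did not overlap. The call held with knockouts alone (-2.33, adjusted p = 0.0274), with wild types alone (-2.96, 0.00662) and without the 2 SVZ libraries that go against their label (-2.26, 0.00574).

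Malat1 measured 52.5, 51.6 and 48.7 RPKM in SVZ wild types and 65.6, 85.6 and 37.9 RPKM in SVZ knockouts. In HC1 it measured 88.9, 112 and 152 RPKM in wild types and 96.2, 136 and 123 RPKM in knockouts. The highest SVZ library, knockout 2, lay just under the lowest HC1 library, and the groups did not overlap. The mean was 2.07-fold lower in the SVZ (log2 difference -1.06 ± 0.23, limma adjusted p = 0.00329; two-sided exact permutation p = 0.005). Within knockouts alone it was -0.96 and did not pass (limma adjusted p = 0.0845), and within wild types alone it was -1.16 (adjusted p = 0.0273).

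Neat1, the paraspeckle scaffold, measured 15.1, 7.95 and 8.89 RPKM in SVZ wild types and 21.1, 14.0 and 16.9 RPKM in SVZ knockouts. In HC1 the wild types were at 101, 65.6 and 29.1 RPKM and the knockouts at 29.9, 35.0 and 23.0 RPKM. The regions did not overlap, but the gap was small between SVZ knockout 1 and HC1 knockout 3. The log2 difference was -1.55 ± 0.51 (limma adjusted p = 0.0266; two-sided exact permutation p = 0.005). It was -2.39 in wild types alone (adjusted p = 0.0341) and -0.72 in knockouts alone (adjusted p = 0.558), and the call ended without SVZ wild type 2 or 3, SVZ knockout 2, HC1 wild type 1 or HC1 knockout 2 (adjusted p up to 0.0674). Without both SVZ libraries that go against their label it was -1.44 (adjusted p = 0.106).

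Sox2ot (plus strand, chr3:34560381-34677993), the RNA whose gene encloses Sox2, was the member called higher in the SVZ. It measured 39.4, 36.1 and 34.3 RPKM in SVZ wild types and 41.6, 32 and 39.5 RPKM in SVZ knockouts. HC1 wild types were at 20.4, 13.0 and 15.9 RPKM and HC1 knockouts at 25.9, 17.3 and 11.5 RPKM. All 6 SVZ libraries lay above all 6 HC1 libraries, and the mean was 2.14-fold higher (log2 difference 1.1 ± 0.38, limma adjusted p = 0.0344; two-sided exact permutation p = 0.005). Of 12 fits that each left out 1 library, 3 kept the call, those without SVZ knockout 2, HC1 wild type 1 or HC1 knockout 1, and the difference ran from 0.96 to 1.24. Without the 2 SVZ libraries that go against their label it was 1.18 (adjusted p = 0.081). Sox2 itself, inside the same gene and on the same strand, had a log2 difference of -0.21 ± 0.16 (adjusted p = 0.326).

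Snhg11 (plus strand, chr2:158375638-158386145), a snoRNA host known from neurons, was low throughout. It measured 0.316, 0 and 0.546 RPKM in SVZ wild types and 0.292, 0.590 and 1.79 RPKM in SVZ knockouts. HC1 wild types were at 0.592, 3.30 and 1.76 RPKM and HC1 knockouts at 0.941, 1.95 and 2.79 RPKM. The regions overlapped, and these values rest on 0 to 11 counted fragments per library. So few fragments at these RPKM imply a counted stretch much shorter than the longest Snhg11 transcript in GENCODE (5864 bases). How much of the gene the row measures is not known. The log2 difference of -0.86 ± 0.32 passed narrowly (limma adjusted p = 0.0457; two-sided exact permutation p = 0.02), and 3 of 12 fits without 1 library kept the call, those without SVZ knockout 3, HC1 wild type 1 or HC1 knockout 1.

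Snhg1 (plus strand, chr19:8723487-8726326) and Gas5 (plus strand, chr1:161035166-161038537) did not pass. Snhg1 measured 70.0 to 89.1 RPKM in the 6 SVZ libraries and 46.7 to 89.3 RPKM in HC1, with HC1 knockout 2 the highest of the 12. The log2 difference was 0.37 ± 0.15 (limma adjusted p = 0.0647; two-sided exact permutation p = 0.03), and without HC1 knockout 2 it was 0.45 and passed (adjusted p = 0.0375). Gas5 measured 26.8, 36.5 and 35.5 RPKM in SVZ wild types, 57.9, 61.8 and 27.3 RPKM in SVZ knockouts, and 24.4 to 48.6 RPKM in HC1. Its regions overlapped, with a log2 difference of 0.18 ± 0.22 (limma adjusted p = 0.55).

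Genes that work with these RNAs gave mixed counts between the regions. Under 3 other scalings of the libraries the list medians given here kept their sign, apart from that of the nuclear speckle list, which lay near 0 in all. Of 15 paraspeckle proteins, 5 were higher in the SVZ and 1 was lower (median 0.20), among them Rbm14 (0.57 ± 0.16, limma adjusted p = 0.0118) and, lower, Hnrnph3 (-0.29 ± 0.09, adjusted p = 0.0249). Of 19 nuclear speckle and splicing factors, 4 were higher and 4 lower (median 0.01). Lower were Clk1, a kinase of splicing factors (-1.06 ± 0.17, adjusted p = 0.00036), and Qk, which encodes the Miat-binding protein QKI (-0.71 ± 0.15, adjusted p = 0.00202). The splicing repressor gene Ptbp1 was higher (0.86 ± 0.16, adjusted p = 0.00109). Of 17 translation factors whose messages begin with a pyrimidine tract, 13 were higher and 0 lower (median 0.42), led by Npm1 (0.70 ± 0.18, adjusted p = 0.00871) and Gnb2l1 (0.61 ± 0.12, adjusted p = 0.00128). Of 12 other snoRNA host genes, 1 was higher, Snhg3 (0.44 ± 0.14, adjusted p = 0.0246), and 2 were lower, among them Snhg14 (-0.63 ± 0.19, adjusted p = 0.0206).

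Of 22 genes listed as other noncoding RNAs, some of them short structural RNAs, 3 were higher and 7 lower (median -0.17). After rescaling to protein-coding and long noncoding genes, 18 remained in the list, 2 higher and 7 lower (median -0.23). Six3os1, beside a forebrain transcription factor gene, was 3.68 ± 0.94 higher (limma adjusted p = 0.0078). Firre (-0.95 ± 0.17, adjusted p = 0.000971) and Ftx, an RNA of the X-inactivation centre (-0.78 ± 0.14, adjusted p = 0.000875), were lower. The wild types of HC1 were female and those of the SVZ male, so for X-linked genes such as Ftx and Firre region and donor sex cannot be told apart in part of the libraries. Among the genes beside the members, Slc3a2, 117 bases from Snhg1 on the opposite strand, had a difference of -0.06 ± 0.10 (limma adjusted p = 0.698), while Frmd8 on the far side of Neat1 was higher (0.50 ± 0.12, adjusted p = 0.0055).

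Markers of cell state moved with the region as well. Of 12 astrocyte markers 6 were lower in the SVZ and 0 higher, with a summed level of 1030 to 2189 RPKM in the SVZ and 3494 to 7155 RPKM in HC1. Of 19 oligodendrocyte lineage markers 6 were lower and 0 higher (796 to 1071 RPKM summed against 875 to 1680). Of 36 cell cycle genes 10 were higher and 0 lower, with a summed level of 4127 to 4633 RPKM in the SVZ and 1116 to 2763 RPKM in HC1. In a fit that included each library's oligodendrocyte marker level, Miat was the 1 member still called (-1.77, limma adjusted p = 0.0451). In that fit Malat1 was at -0.995 ± 0.325 (adjusted p = 0.0762), Neat1 at -0.97 ± 0.67 (adjusted p = 0.392), Sox2ot at 0.83 ± 0.52 (adjusted p = 0.339) and Snhg11 at -0.98 ± 0.44 (adjusted p = 0.18). In a fit that included the cell cycle level 3 were called, Miat (-1.96, adjusted p = 0.000631), Malat1 (-0.75, adjusted p = 0.0173) and Sox2ot (1.45, adjusted p = 0.0179). In these bulk libraries fewer cells of a type and less RNA per cell cannot be told apart.

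Interneuron and neuroblast markers gave 2 higher and 3 lower of 11. Dlx2 was higher in the SVZ (0.94 ± 0.13, limma adjusted p = 0.000189), and Gad1, which makes the transmitter GABA, was lower (-1.60 ± 0.30, adjusted p = 0.00121).

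**Figure D2:**
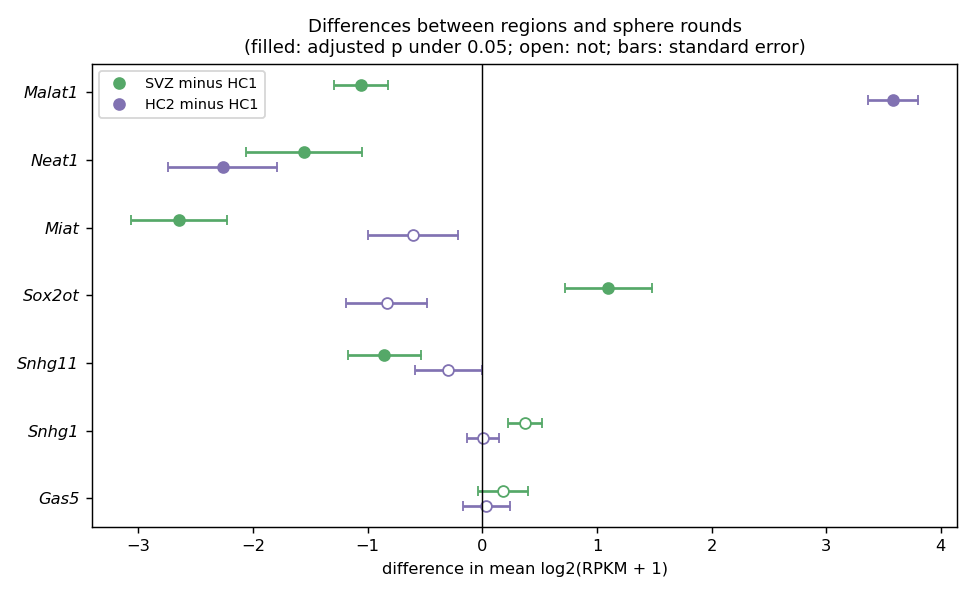
Difference in mean log2(RPKM + 1) for the 7 tested RNAs between SVZ and HC1 and between HC2 and HC1; bars are standard errors and filled points passed an adjusted p under 0.05. Malat1 is 1.06 lower in the SVZ and 3.58 higher in HC2, and Sox2ot is 1.1 higher in the SVZ.

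The round comparison sets HC2 against HC1, the same region and culture day, and it shares its HC1 libraries with the region comparison. Donor sex differs with round among the wild types, since the HC1 wild types were female and all HC2 donors male, and it does not among the knockouts. Of the 7 members, Malat1 was higher and Neat1 lower, and 5 did not pass. Over all genes 54.3% were called (22.8% higher and 31.5% lower), so 2 of 7 is no more than that background. The tested members had a median of -0.30 against -0.06 for all genes. The number of genes called higher and lower was 3738 and 5166, and 4743 and 4290 after rescaling each library to its median gene. The 2 members called kept their directions and calls under that rescaling.

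Malat1 measured 798, 1646, 1538 and 1339 RPKM in HC2 wild types 2, 3, 5 and 6 and 1135, 1759, 1147 and 2408 RPKM in HC2 knockouts 1, 4, 7 and 8. The HC1 libraries given above lay at 152 RPKM or below. There was no overlap, which held for 25.4% of all tested genes in this comparison. The mean was 12.5-fold higher in HC2 (log2 difference 3.58 ± 0.22, limma adjusted p = 4.16e-10; two-sided exact permutation p = 0.000816, the smallest that the design allows). Among 1497 RefSeq long noncoding genes this was the highest difference, and it ranked 116 from the top among all 16403 genes. Over 14 other settings it stayed between 3.18 and 3.72, including 3.72 after rescaling to protein-coding and long noncoding genes, which leaves the short structural RNAs out of the total. No setting can separate sphere round from a difference in library making that acts on single genes, and this was not tested.

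Neat1 went the other way at the neighbouring locus. It measured 2.65, 9.42, 14.9 and 4.01 RPKM in the HC2 wild types and 2.76, 21, 3.24 and 30.5 RPKM in the HC2 knockouts. Only HC2 knockout 8 lay within the HC1 range of 23.0 to 101 RPKM. The mean was 4.27-fold lower in HC2 (log2 difference -2.27 ± 0.47, limma adjusted p = 0.00069; two-sided exact permutation p = 0.00816). In wild types alone, where donor sex differs too, it was -2.99 (adjusted p = 0.00203), and in the all-male knockouts alone -1.54, which did not pass (adjusted p = 0.08). Of the 9 tested genes listed as beside or overlapping the members, 7 were higher in HC2 and 1 was lower (median 0.36). Among the 7 was Frmd8, on the other side of Neat1 from Malat1 (0.36 ± 0.11, adjusted p = 0.0129). The nearest gene on that side was Frmd8os, 178 bases from Neat1 on the opposite strand. Its means were 5.79 and 8.46 RPKM in HC1 wild types and knockouts and 2.61 and 3.13 RPKM in those of HC2.

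Miat measured 4.40, 21.4, 34.6 and 18.9 RPKM in the HC2 wild types and 13.7, 14.8, 3.66 and 13.4 RPKM in the HC2 knockouts. HC2 wild type 2 and knockout 7 were low, near the SVZ level, and wild type 5 was above all HC1 libraries. The log2 difference from HC1 was -0.60 ± 0.39 (limma adjusted p = 0.204). Sox2ot measured 2.77, 8.14, 3.74 and 21.1 RPKM in the wild types and 4.75, 18, 10.3 and 20.4 RPKM in the knockouts. It overlapped HC1, with a log2 difference of -0.84 ± 0.35 (limma adjusted p = 0.0563), which passed without HC1 knockout 3, HC2 wild type 6, HC2 knockout 4 or HC2 knockout 8 (4 of 14 such fits). Sox2, inside it, was 1.32 ± 0.15 higher in HC2 (adjusted p = 1.08e-06), and its group means were 267 RPKM in wild types and 234 RPKM in knockouts there.

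The snoRNA hosts among the members did not pass in this comparison. Snhg1 lay between 47.6 and 88.0 RPKM in HC2 and had a log2 difference of 0.00 ± 0.14 (limma adjusted p = 0.991). Gas5 lay between 21.1 and 43.1 RPKM with a difference of 0.04 ± 0.20 (adjusted p = 0.898), and Snhg11 between 0.426 and 5.03 RPKM with one of -0.30 ± 0.30 (adjusted p = 0.414). The 12 other snoRNA hosts had a median of -0.45, with 8 lower and 1 higher, Snhg9 (1.30 ± 0.30, adjusted p = 0.00139). Snord22, the snoRNA listed inside Snhg1, lay between 4.97 and 23.5 RPKM over the 20 libraries, and Snord47, inside Gas5, between 0.598 and 17.1 RPKM.

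Partner genes were mostly lower in HC2, and the list medians given here kept their sign under 3 other scalings of the libraries. Of 15 paraspeckle proteins 13 were lower and 0 higher (median -1.03), among them Taf15 (-2.67 ± 0.11, limma adjusted p = 3.76e-12). Their summed level was 671 to 1036 RPKM in HC2 and 1899 to 2129 RPKM in HC1. Of 19 nuclear speckle and splicing factors 15 were lower, led by Srrm1 (-2.43 ± 0.06, adjusted p = 6.52e-15) and Srrm2, a core speckle protein (-1.71 ± 0.10, adjusted p = 3.65e-10), and 1 was higher, Qk (0.61 ± 0.14, adjusted p = 0.00104). Of 17 translation factors with a pyrimidine tract 13 were lower and 0 higher (median -0.76), with Tpt1 at -2.63 ± 0.12 (adjusted p = 1.33e-11). Of 14 nonsense-mediated decay factors 8 were lower and 2 higher (median -0.33). Of the 22 other noncoding RNAs 13 were lower and 4 higher (median -0.41): the short structural RNA genes Rpph1 (12.88 ± 0.28, adjusted p = 1.1e-15) and Rn7sk (11.83 ± 0.23, adjusted p = 2.01e-16) led the rise, and the imprinted Peg13 the fall (-1.87 ± 0.12, adjusted p = 7.37e-10). Among the 18 left after rescaling to protein-coding and long noncoding genes, 9 were lower and 1 higher (median -0.37).

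Cell state markers moved with the round too. Of 36 cell cycle genes 27 were lower in HC2 and 0 higher, and of 12 astrocyte markers 5 were higher and 0 lower, led by Apoe (1.99 ± 0.57, limma adjusted p = 0.0075). Of 19 oligodendrocyte lineage markers 12 were lower and 2 higher. With the cell cycle level in the fit, 4 members were called: Malat1 (3.18, adjusted p = 2.75e-09), Neat1 (-3.45, adjusted p = 4.98e-07), Miat (-1.50, adjusted p = 0.000996) and Sox2ot (-1.29, adjusted p = 0.0161). With the oligodendrocyte level in the fit, Malat1 was the 1 member called (3.66, adjusted p = 5.08e-07), and Neat1 was at -1.59 ± 0.71 and did not pass (adjusted p = 0.0842).

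The genotype comparisons ask whether loss of Egfl7 changed these RNAs. No member passed in the SVZ, HC1, HC2 or the mean of both hippocampal contrasts, and the smallest limma adjusted p among them was 0.757. At an unadjusted p under 0.05, 0 of 7 members passed in each of the 4. Over all genes 2 were called in the SVZ (0.0122%), 2 in HC1 (0.0122%), 4 in HC2 (0.0244%) and 5 in the hippocampal mean (0.0305%), and 379, 646, 644 and 970 genes had an unadjusted p under 0.05. The knockout effects did not differ for any member between the SVZ and HC2 or between HC1 and HC2 at the threshold (limma adjusted p = 1 for all 7 in both, 5 and 4 genes called, 0.0305% and 0.0244%). An exact permutation test of 1 gene cannot go below p = 0.1 in the SVZ or HC1 or below 0.0286 in HC2, so these tests could show only large and even changes.

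In the SVZ, 6 of 7 members had a higher knockout mean on the log2 scale. The largest differences were Neat1 at 0.69 ± 0.72, Snhg11 at 0.50 ± 0.45 and Gas5 at 0.49 ± 0.31, and for each of them knockout and wild-type libraries overlapped, as for all 7 members (7.76% of all tested genes did not overlap). Gas5 was at 57.9 and 61.8 RPKM in knockouts 1 and 2 and at 27.3 RPKM in knockout 3, against at most 36.5 RPKM in the wild types. Malat1 differed by 0.23 ± 0.33, and by -0.06 without the 2 libraries that go against their label. Neat1 differed by 0.73 without those 2.

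In HC1, Neat1 had the widest difference, -0.98 ± 0.72 (limma adjusted p = 0.976; two-sided exact permutation p = 0.3). Its wild types spread from 29.1 to 101 RPKM and enclosed part of the knockout range. Snhg1 was the 1 member whose HC1 genotypes did not overlap: the wild types were at 56.7, 46.7 and 57.7 RPKM and the knockouts at 61.8, 89.3 and 64.3 RPKM. Of all tested genes, 13.7% did not overlap in this contrast. The Snhg1 difference was 0.40 ± 0.21 (limma adjusted p = 0.976; two-sided exact permutation p = 0.1, the smallest possible). All HC1 wild types were female and all knockouts male, so genotype and sex cannot be told apart there. In HC2, where all donors were male, Snhg1 differed by -0.03 ± 0.18.

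In HC2 the differences ran from -0.62 ± 0.51 for Miat to 0.72 ± 0.46 for Sox2ot, and all 7 overlapped between genotypes, as did all but 1.13% of the tested genes. Neat1 differed by 0.47 ± 0.62 and Malat1 by 0.26 ± 0.28. All 36 cell cycle genes had a higher mean in the HC2 knockouts, none past the threshold (median 1.23), and the libraries' summed cell cycle level ran from 436 to 2074 RPKM in knockouts and from 150 to 2441 RPKM in wild types. The mean log2(RPKM + 1) of these genes was then added as a term to the fit of all 20 libraries, with a slope shared by all groups. The difference of Miat became 0.09, that of Neat1 1.39 and that of Malat1 0.57, and again none passed (adjusted p from 0.624 to 0.99).

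**Figure D3:**
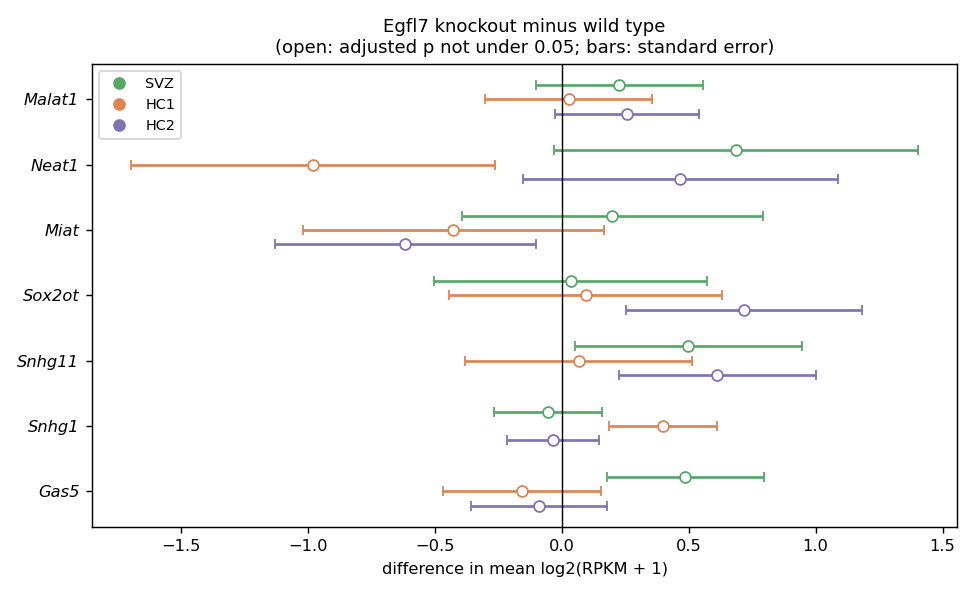
Egfl7 knockout minus wild type in mean log2(RPKM + 1) for the 7 tested RNAs in the SVZ, HC1 and HC2; bars are standard errors and open points did not pass an adjusted p under 0.05. All 21 points are open, and Neat1 spans -0.98 in HC1 to 0.69 in the SVZ.

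Within HC2 the libraries of each genotype spread widely, and 3 members moved with the cell cycle level of the library. The mean log2(RPKM + 1) of 36 cell cycle genes was 5.76, 2.60, 1.72 and 3.52 in HC2 wild types 2, 3, 5 and 6 and 5.45, 3.81, 5.55 and 3.39 in knockouts 1, 4, 7 and 8. The 8 libraries thus fall into 3 at 5.45 to 5.76 and 5 at 1.72 to 3.81. Across them and with genotype as a term, 3 of 7 members fell with that level and 0 rose, while 24.2% of all genes were called, 8.2% falling and 16.0% rising. Malat1 changed by -0.32 ± 0.05 (SE) per unit of that log2 level (limma adjusted p = 0.00514), Neat1 by -0.78 ± 0.17 (adjusted p = 0.0141) and Miat by -0.60 ± 0.13 (adjusted p = 0.0154).

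In the 3 libraries with the highest cell cycle level Neat1 was at 2.65, 2.76 and 3.24 RPKM, below the other 5 (4.01 to 30.5 RPKM). Malat1 was at 798, 1135 and 1147 RPKM there, again below the other 5 (1339 to 2408 RPKM). Miat was at 4.40 and 3.66 RPKM in 2 of the 3 and at 13.7 RPKM in knockout 1. Snhg1 had a slope of 0.17 ± 0.06 that did not pass (limma adjusted p = 0.0802) and passed without HC2 wild type 5 (0.25, adjusted p = 0.0224), and its 2 highest HC2 values, 84.6 and 88.0 RPKM, were in 2 of the same 3 libraries. Sox2ot (-0.30), Snhg11 (-0.27) and Gas5 (0.11) did not pass.

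These slopes rest on few libraries. Without HC2 wild type 2 only Neat1 remained called, and Malat1 (-0.36, limma adjusted p = 0.0643) and Miat (-0.46, adjusted p = 0.235) did not, while the number of genes called fell from 3973 to 867. Without wild types 2 and 5, the 2 libraries farthest from the median level, Malat1 was at -0.45 (adjusted p = 0.0166), Neat1 at -1.39 (adjusted p = 0.00326) and Miat at -0.43 (adjusted p = 0.348). Without genotype as a term only Miat passed (-0.59, adjusted p = 0.00616). Astrocyte markers fell on the same axis, 9 of 12 with 0 rising, led by Gfap (-2.11 ± 0.19, adjusted p = 0.000376), and their summed level was 4144 to 5095 RPKM in the 3 libraries against 12426 to 22447 RPKM in the other 5. Their part in the members' slopes was not tested.

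**Figure D4:**
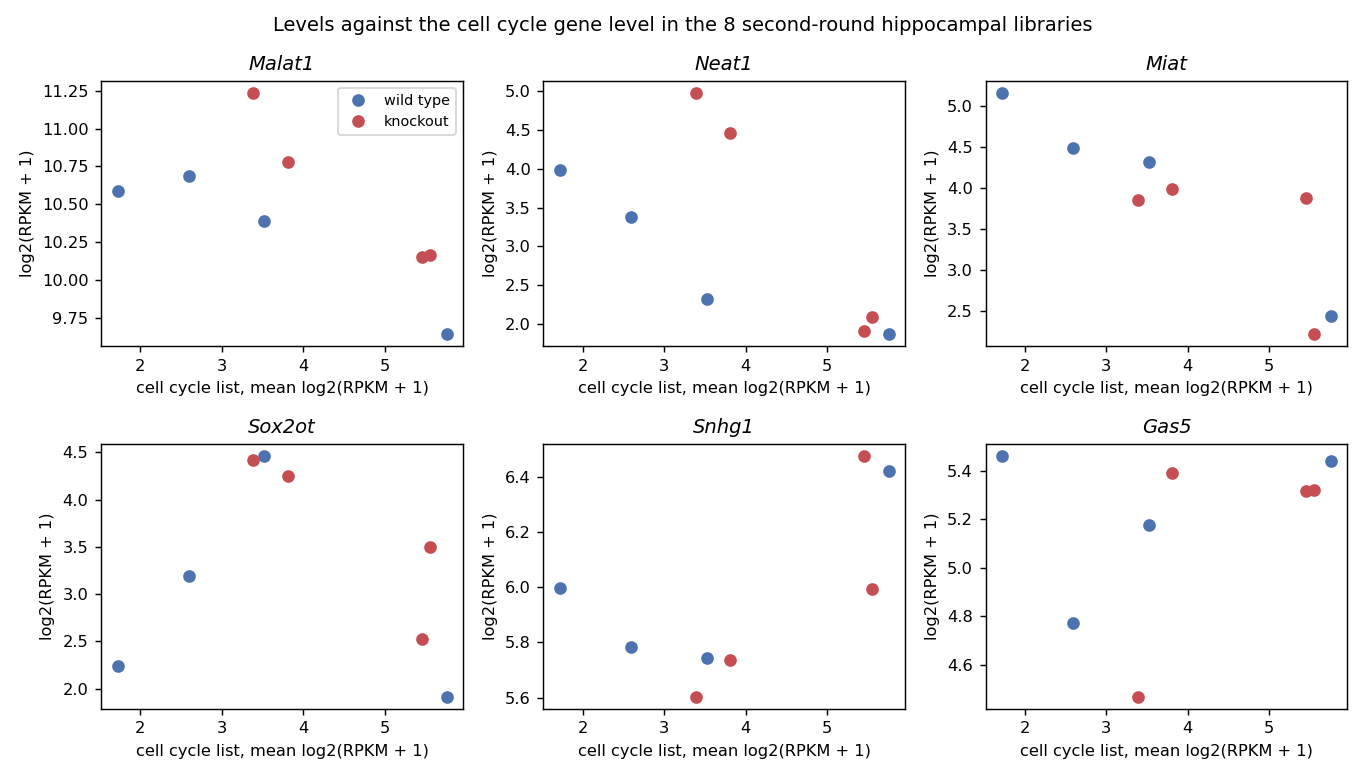
Log2(RPKM + 1) of 6 RNAs against the mean log2(RPKM + 1) of 36 cell cycle genes in the 8 HC2 libraries (blue wild type, red knockout). Malat1 and Neat1 are lowest in the 3 libraries at 5.45 to 5.76, where Snhg1 has its 2 highest values.

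HC2 knockout 8 stood at an end of the range for 5 of the 7 members measured in all 8 HC2 libraries. It had the highest Malat1 (2408 RPKM), Neat1 (30.5 RPKM) and Snhg11 (5.03 RPKM, 27 counted fragments) and the lowest Snhg1 (47.6 RPKM) and Gas5 (21.1 RPKM). Sox2ot, at 20.4 RPKM, was near its HC2 maximum there, and Miat, at 13.4 RPKM, was in the middle of its range. The share of all tested genes at an end of the range in this library was not counted. Its summed levels of paraspeckle proteins (671 RPKM), speckle and splicing factors (2293), translation factors (5939) and nonsense-mediated decay factors (411) were also the lowest in HC2. The count is therefore not read as particular to the members.

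As a description of likeness, the genes whose log2(RPKM + 1) followed each member most closely over the 20 libraries were sought among the tested genes. These r values take in the difference between rounds that all genes share through depth and composition, and they carry no test. For Malat1 they were Nbeal1 (r = 0.97), Hook3, a microtubule adaptor (0.97), and Taok1, a kinase (0.97), with 5 unnamed genes above the first. For Neat1 they were Tmem38b (0.93), Mapk1ip1 (0.91) and Uvssa (0.90), and for Miat Tcp11l2 (0.96), Tmeff2 (0.96) and Atg9a (0.96). For Sox2ot they were Spata6 (0.94), Plekhf2 (0.89) and Pcdhgc5 (0.86). For Snhg1 they were Bop1, a ribosome assembly factor (0.88), Grk6 (0.87) and Kti12 (0.87). For Gas5 the highest was Otud4 (0.74). For Snhg11 the highest named gene was Ifitm7 (0.71), with 3 unnamed genes above it. Among the members themselves, within the 8 HC2 libraries, Malat1 and Neat1 had r = 0.91 and Malat1 and Snhg1 r = -0.84, the highest and the lowest of the member pairs there. Over all 20 libraries Malat1 and Neat1 had r = -0.39, and in the 12 first-round libraries 0.60. For Malat1 and Snhg1 the values were -0.43 and -0.47.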

How the data were processed

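The labels' protocols describe Trizol extraction of total RNA, ribosomal RNA depletion, a stranded library kit, a capture step for mouse exons and paired reads from a NovaSeq. They do not say whether the capture probes cover these RNAs, and no source used here gives the aligner, the counter or the use of strand, so reads of overlapping genes may be shared. FastQC 0.11.5, DESeq2 and the build mm10 (GRCm38) are named in the submitters' processing notes. Values in the deposited table of 36724 genes are RPKM, per the file headers, with decimal commas, and a blank was read as 0. A second deposited table, filtered by the authors to 19709 genes and lacking Rmst and Dlx6os1, served as a gene list. RPKM are not counts, so count models were not run. Depth was worked out from the steps of low values of genes spanning under 4000 bases. Only 32.8 to 54.9% of the low values per library came out whole within 0.1, so depth and fragment numbers are estimates.

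The filter of 0.5 RPKM in 3 libraries kept 44.67% of genes. These were compared as log2(RPKM + 1), which understates changes of low genes. A single limma model (3.58.1, R 4.3.3) held the 6 group means over all 20 libraries, leaving 14 degrees of freedom, with a trended and robust eBayes step. Its p-values are two-sided and were Benjamini-Hochberg adjusted over every tested gene (threshold 0.05). The slope used the 8 HC2 libraries. Exact permutation tests shuffled libraries within region or within genotype. The model was tested on simulated data. The members and the 17 gene lists were chosen with earlier results of these data known, so no list is independent evidence. Named genes are the members, up to 2 called genes per list and direction, genes beside the members, and the 3 genes of highest r. Some genes that this rule names are not reported here. The p-values measure the spread between libraries. The labels number the mice apart only within a group. Numbers recur across groups, and those with another genotype or sex are different mice. For those with the same genotype and sex, the labels do not say whether the mouse is the same. All libraries were fitted as independent. Alternatives were other pseudocounts, filters, scalings, covariates, weights and subsets of libraries. Transcript sequences and positions are from GENCODE M21 (GRCm38). Start windows are from RefSeq (GRCm38.p6), which held them for 6 of the 9 members.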

Additional observations from a re-analysis of the deposited data

Results flagged for a closer look

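Of the 16 group and member pairs that could be checked for a lone library in HC2 (4 libraries a group), 3 had one by Dixon's gap test at its usual critical value. Chance alone flags about 1 group in 20 where values are normally distributed, which was not checked for these RPKM. The rate over all genes was not counted, so 3 of 16 is not read as an excess. Miat was at 3.66 RPKM in knockout 7, against 13.4 to 14.8 RPKM in the other 3 HC2 knockouts (ratio of gap to range 0.874). Gas5 was at 21.1 RPKM in knockout 8, against 38.8 to 40.9 RPKM in the others (0.894). Rmst was at 0.274 RPKM in knockout 8, against 0 to 0.042 RPKM in the others (0.847).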

How the results depend on the processing

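Results of single members were tallied for the SVZ, HC1 and HC2 genotype contrasts, the region and round comparisons and the slope. Over all settings of these, 773 kept their direction and their side of the threshold, 49 lost a call, 11 gained one and 42 changed sign. The sign changes were among differences that were not called. With array weights, knockout minus wild type was -0.031 for Malat1 and -0.23 for Snhg11 in HC1 and 0.024 for Snhg1 and 0.092 for Gas5 in HC2, and HC2 minus HC1 was -0.066 for Snhg1 and -0.068 for Gas5. With the cell cycle level in the fit the knockout difference of Miat in HC2 was 0.088. With the oligodendrocyte level it was 0.10 for Snhg1 in HC2, and HC2 minus HC1 was 0.42 for Miat and -0.15 for Gas5. Without the 2 SVZ libraries that go against their label the knockout difference of Malat1 was -0.059, in knockouts only HC2 minus HC1 was -0.21 for Snhg1, and in wild types only SVZ minus HC1 was -0.14 for Gas5. The cause was not tested, except that subsets hold fewer libraries.

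Genes called between genotypes were few in every setting. In the SVZ (2) there was 1 with a pseudocount of 0.1, 0 with only the groups compared, 9 with array weights and 0 after rescaling to protein-coding and long noncoding genes, a setting chosen after seeing the data. In HC1 (2) there were 4 with a pseudocount of 0.01, 7 with no filter on low values, 4 with quantile normalization, 8 with array weights, 4 with the cell cycle level and 1 after rescaling. In HC2 (4) there were 7 with no filter, 0 with the authors' filtered genes and 0 after rescaling. In the hippocampal mean (5) the authors' genes gave 0, array weights 8 and rescaling 2. The difference in knockout effect between SVZ and HC2 (5) gave 1 with the authors' genes and 0 after rescaling, and that between HC1 and HC2 (4) gave 1 and 1. The replicate block gave 1 gene in HC1 and 2 in the SVZ, with 0 members called. Same-numbered knockout and wild-type libraries within the SVZ and within HC1 did not deviate together (correlations from -0.26 to 0.01 over genes), so the numbers were not read as pairs. Whether libraries of the same mouse number in different regions or rounds deviate together was not tested.

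For SVZ minus HC1 (5593 genes), 945 were called with the oligodendrocyte level, 2934 without the 2 SVZ libraries, 1158 in knockouts only and 2818 in wild types only. Members called (5) were 3 with no filter, 3 with the cell cycle level, 1 with the oligodendrocyte level, 2 without the 2 SVZ libraries, 1 in knockouts only and 3 in wild types only. For HC2 minus HC1, members called (2) were 4 with the cell cycle level, 1 with the oligodendrocyte level and 1 in knockouts only. For the slope within HC2 (3973 genes, 3 members), 1513 genes were called without the 2 farthest libraries and 1 member without genotype as a term.

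With 1 library left out at a time, genes called ran from 2 to 5 in the SVZ, 1 to 2 in HC1, 4 to 26 in HC2, 4 to 19 in the hippocampal mean, 4 to 8 and 4 to 7 for the differences in knockout effect, and 867 to 4144 for the slope. Members called ran from 2 to 5 for SVZ minus HC1 and from 1 to 4 for the slope. Knockout differences in the SVZ ran from -0.028 to 0.55 for Malat1, -0.21 to 0.56 for Miat, -0.16 to 0.012 for Snhg1 and -0.038 to 0.145 for Sox2ot. In HC1 they ran from -0.15 to 0.23 for Malat1, -0.30 to 0.41 for Snhg11, -0.18 to 0.37 for Sox2ot and -0.43 to 0.053 for Gas5. In HC2 they ran from -0.072 to 0.95 for Neat1, -0.21 to 0.11 for Snhg1 and -0.24 to 0.13 for Gas5. HC2 minus HC1 ran from -0.085 to 0.085 for Snhg1 and -0.10 to 0.14 for Gas5. Depth limits Snhg11 and Rmst, which rest on 0 to 27 counted fragments per library.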
